A study of Mus musculus with 12 samples.

Results

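The genes described here are those that make haem, build the red cell membrane, take up iron and carry the red cell through its last stages of maturation, with the globin genes left out. They were chosen by symbol from the table of raw counts, and 31 of the 32 named genes had a row among its 45664 rows. All 31 also passed the filter on low counts, while Ahsp, the chaperone of free alpha globin, matched no row and was not analysed here. Epb41 and Epb42 were found under older symbols. The counts came from bulk RNA of whole embryonic mouse hearts, 1 library per sample, in 4 groups of 3: wild-type (WT) hearts and hearts with Ino80 disrupted (KO), each collected at the embryonic stages E13.5 and E14.5, named by the day of gestation. Ino80 encodes the catalytic subunit of a chromatin remodelling complex, and the labels describe its disruption as endothelial and driven through Tie2. The Tie2 promoter is also known to be active in the precursors of blood cells, so blood as well as vessels can carry such a disruption. The labels put all E13.5 embryos in litter 1 and the E14.5 embryos in litters 2 and 3, the latter holding only WT replicate 7.2 and KO replicate 1. Stage and litter therefore cannot be told apart. Not given in the sources used here were the strain, the deleted exons and the alleles that the WT embryos carry.

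Red cells make haem in a chain of enzymes that starts and ends in the mitochondrion. Alas2 catalyses the first step in erythroid cells and Fech inserts iron at the last. The iron arrives on transferrin through the transferrin receptor Tfrc, is reduced by Steap3 in the endosome and enters the mitochondrion through Slc25a37. The finished cell is held in shape by a spectrin skeleton, tied by ankyrin (Ank1) and protein 4.2 (Epb42) to the anion exchanger band 3 (Slc4a1). A heart at these stages holds circulating red cells of the primitive lineage, made in the yolk sac, and of the definitive lineage, made in the fetal liver. Only some of these genes are restricted to red cells. A set of 11 measured genes, Alas2, Slc4a1, Epb42, Rhag, Rhd, Kel, Ermap, Icam4, Trim10, Trim58 and Tspo2, was treated as erythroid-restricted from textbook knowledge, and the other 20 are also used by other cells.

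The libraries held 46556032 to 182545647 counts. Heart muscle and endothelial markers were present in every library, with none of 10 cardiomyocyte and none of 10 endothelial genes at 0. Of 8 fetal liver hepatocyte genes, 0 to 5 were at 0, with 5 only in E14.5 KO replicate 2. Their summed level was 5.84, 4.17 and 4.37 CPM (counts scaled to the library size) in E14.5 WT replicates 7 and 7.2 and KO replicate 1. In the other hearts it was 1.47 to 2.705 CPM. Ino80 itself differed by a log2 fold change of -0.15 between KO and WT averaged over the stages (edgeR quasi-likelihood test, Benjamini-Hochberg adjusted p = 0.22). The count covers the whole gene, so it does not check a deletion of part of it. Globin transcripts, a measure of blood in the sample, took between 0.491% and 3.98% of counts, the lowest in replicate 2 and the highest in replicate 1 of E14.5 KO. The summed level of 14 macrophage and leukocyte genes was 95.4 to 119 CPM in the 6 WT hearts. In the KO hearts it was 40.03, 14.98 and 76.7 CPM in E13.5 replicates 3, 5 and 7 and 25.6, 128 and 112 CPM in E14.5 replicates 2, 4 and 1. All 3 E13.5 KO hearts and 1 E14.5 KO heart, replicate 2, were thus below every WT heart.

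The first comparison was KO against WT hearts, at each stage and averaged over both. Tfrc, the iron uptake receptor, which many cells of the heart also make, fell in KO hearts. Every other red cell gene missed the threshold of an adjusted p under 0.05 in all 3 of these comparisons in edgeR with all libraries. None of the 11 erythroid-restricted genes passed, by edgeR or DESeq2, and their median coefficient of variation within a group was 31% to 58.9%. In what follows, CPM values are library-scaled, and the 3 values of a group stand in the order replicates 1, 4 and 2 for E13.5 WT, 3, 5 and 7 for E13.5 KO, 8, 7 and 7.2 for E14.5 WT, and 2, 4 and 1 for E14.5 KO.

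Tfrc (chromosome 16, 32608920 to 32632794, GRCm38) was read at 161, 160.3 and 140.0 CPM in E13.5 WT hearts and 128, 110.3 and 120.3 CPM in E13.5 KO hearts. The E14.5 values were 172, 169 and 148 CPM in WT and 129, 124 and 142 CPM in KO. At both stages every KO heart was lower than every WT heart. The means were 154 ± 11.9 CPM in WT and 119 ± 8.68 CPM in KO at the earlier stage, and 163 ± 13.1 and 132 ± 9.14 CPM at the later one (mean ± SD, n = 3). The log2 fold change of KO over WT averaged over the stages was -0.34 ± 0.06 (SE), with an adjusted p of 0.0138 in edgeR's quasi-likelihood test. This was the only call among the 31 genes, where 1.42% of all 20691 tested genes were called in that comparison. At the single stages the log2 fold changes were -0.36 ± 0.08, adjusted p = 0.165, and -0.31 ± 0.08, adjusted p = 0.191, both short of the threshold. DESeq2 called Tfrc at each stage, with adjusted p-values of 0.00997 and 0.0478, where it called 1.57% and 1.7% of the genes it tested. In bulk samples, fewer cells that express a gene and less of its RNA per cell cannot be told apart.

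The averaged fall of Tfrc passed in 12 of 12 fits that each left out 1 library, with adjusted p between 0.00822 and 0.0485. It did not pass without E14.5 KO replicate 2 and E13.5 KO replicate 5 together, where the log2 fold change was -0.30 (edgeR, adjusted p = 0.0971). Summed macrophage and leukocyte genes were below all WT hearts in 4 of the 6 KO hearts, as given above. Of these genes 14 of 14 had a log2 fold change below 0 in the average, and 0 were called in edgeR or DESeq2. In edgeR 3 had an unadjusted p under 0.05, where 14.7% of all genes were under it. In E14.5 KO replicates 4 and 1 the macrophage and leukocyte sum was 128 and 112 CPM, and Tfrc was 124 and 142 CPM. Of 10 cardiomyocyte genes 8 had an averaged log2 fold change below 0, with a median of -0.11, and 0 were called in edgeR or DESeq2. At an unadjusted p under 0.05 in edgeR there were 0, beside the same 14.7% of all genes. The summed level of the cardiomyocyte genes was 25130 to 26180 CPM in WT and 22650 to 28090 CPM in KO at E13.5. At E14.5 it was 27670 to 30590 CPM in WT and 24100 to 29860 CPM in KO. Of 10 endothelial genes 8 had an averaged log2 fold change above 0. In edgeR 1 was called as lower, Pecam1 at -0.47 ± 0.05 (adjusted p = 0.000785), and 1 as higher, Eng at 0.30 ± 0.06 (0.0193). DESeq2 called these and Emcn, as higher, where it called 5.11% of the genes it tested. The part of any of these cell types in the Tfrc values was not tested. The embryonic globins, which mark primitive red cells, took a larger share of globin reads in KO hearts at E13.5, with 31.5%, 39.2% and 27.02% against 13.1%, 16.6% and 10.4% in WT. At E14.5 that share was 20.5%, 5.04% and 0.44% in KO against 2.96%, 0.864% and 0.279% in WT, so the groups overlapped. With the embryonic globin level as a covariate the log2 fold change of Tfrc was -0.35, and its adjusted p was 0.252 in edgeR. Under that covariate 0.029% of all genes were called in the averaged comparison, against 1.42% without it. Across the 12 embryos Tfrc had an r of 0.314 with the summed globin level (permutation test, adjusted p = 0.446).

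Steap3, the ferrireductase that acts on iron brought in by Tfrc, was ordered in the same way. It was 20.4, 21.6 and 23.5 CPM in E13.5 WT against 19.2, 19.7 and 18.9 CPM in KO, and 22.4, 22.5 and 27.7 CPM in E14.5 WT against 19.6, 21.9 and 22.1 CPM in KO. The groups did not overlap at either stage, though the nearest E14.5 values, 22.4 and 22.1 CPM, were almost equal. The averaged log2 fold change of -0.19 ± 0.07, adjusted p = 0.198, did not pass in edgeR. Tfrc and Steap3 were the genes among the 31 whose KO hearts lay apart from WT in 1 direction at both stages, and 3.25% of all tested genes did so.

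**Figure D1:**
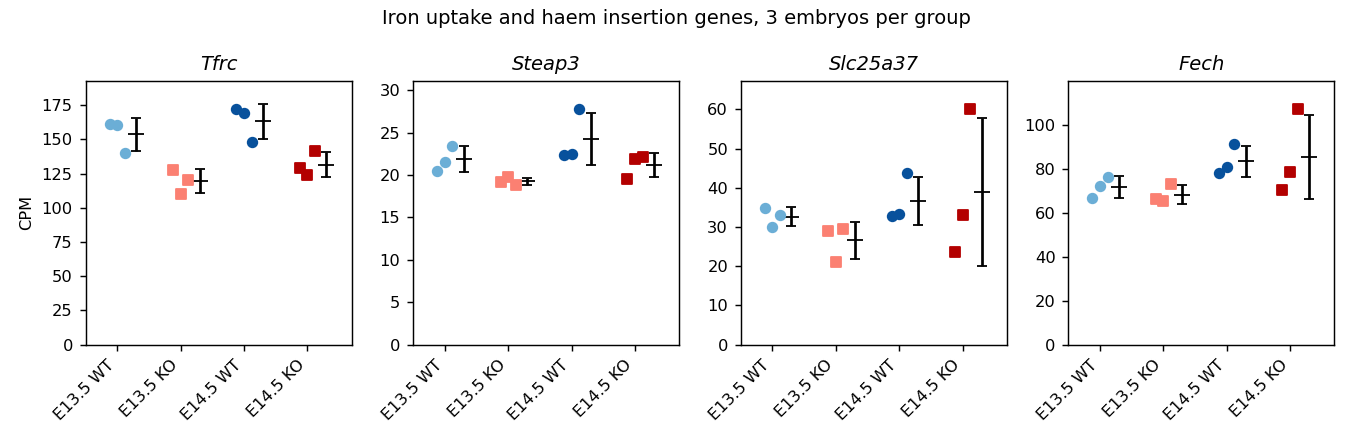
Level in CPM (y axis, from 0) of Tfrc, Steap3, Slc25a37 and Fech in the 4 groups (x axis). Each point is 1 embryo, and the black bar beside each group is the mean with its SD. The Tfrc values of the 6 KO hearts lie between 110.3 and 142 CPM, below the WT values of their own stage.

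Of the 31 genes, 0 were called at E13.5 in edgeR, and 1, Tfrc, by DESeq2, where 0.106% of tested genes were called in edgeR. At an unadjusted p under 0.05 there were 2, Tfrc and Ppox, both lower in KO, where 10.3% of all genes were under it. At E14.5, 0 were called in edgeR and again 1, Tfrc, by DESeq2, where 0.222% of tested genes were called in edgeR. At an unadjusted p under 0.05 there were 3, Bnip3l and Nfe2 higher and Tfrc lower, where 9.59% of all genes were under it. KO hearts lay wholly below WT hearts at E13.5 for 4 genes, Tfrc, Steap3, Ppox and Slc25a37, and wholly above for 0, where the groups of 19.6% of all genes were apart. At E14.5 the groups were apart for 3 genes, Bnip3l above and Tfrc and Steap3 below, where 12.7% of all genes were apart. The median log2 fold change of the 31 genes was -0.063 at E13.5 and 0.0016 at E14.5, beside medians of 0.0018 and -0.0071 over all tested genes. For the 11 erythroid-restricted genes the medians were -0.20 at E13.5 and 0.096 at E14.5.

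**Figure D2:**
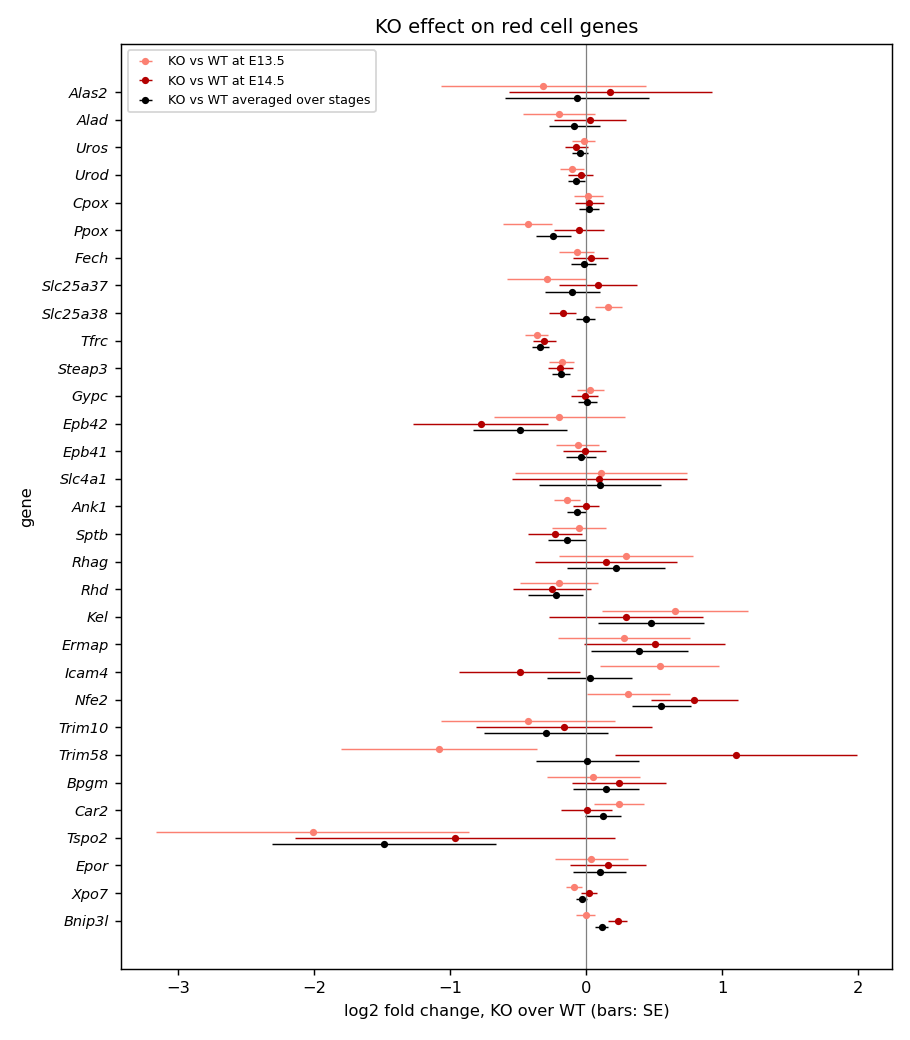
Log2 fold change of KO over WT (x axis, bars are SE) for each of the 31 red cell genes (y axis), at each stage and as the average of the stages. Tfrc stands at -0.34 ± 0.06 averaged over the stages, while bars of erythroid-restricted genes such as Alas2 and Tspo2 are several times wider.

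Haem synthesis was measured through 7 enzymes. None passed for KO against WT by edgeR or DESeq2, and 6 of the 7 were lower in KO at E13.5, with a median log2 fold change of -0.10. At E14.5, 4 of the 7 were higher, with a median of 0.023. Alas2 (chromosome X, 150547375 to 150570638), the rate-limiting enzyme of erythroid haem synthesis, was 19.5, 22.4 and 34.3 CPM in E13.5 WT and 18.9, 12.9 and 28.8 CPM in E13.5 KO. The E14.5 values were 36.7, 46.2 and 64.96 CPM in WT and 12.7, 27.4 and 127 CPM in KO. The lowest and the highest of all 12 hearts were both E14.5 KO hearts, replicates 2 and 1. The log2 fold change was -0.32 ± 0.75, adjusted p = 0.921, and 0.18 ± 0.75, adjusted p = 0.988, and the groups overlapped at both stages.

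Fech (chromosome 18), ferrochelatase, was 66.5, 72.3 and 76.3 CPM in E13.5 WT and 66.3, 65.2 and 73.02 CPM in KO. By E14.5 it stood at 78.1, 80.7 and 91.4 CPM in WT and 70.5, 78.4 and 107 CPM in KO. E14.5 KO replicate 1 was again the highest heart, and the genotypes overlapped. Ppox, the enzyme before Fech, was 26.8, 24.4 and 24.98 CPM in E13.5 WT and 20.1, 17.9 and 18.5 CPM in E13.5 KO, with no overlap and a log2 fold change of -0.43 ± 0.18, adjusted p = 0.446. At E14.5 its KO values of 10.7, 21.7 and 16.7 CPM spanned the WT values of 16.5, 17.01 and 17.6 CPM. Uros, which closes the tetrapyrrole ring, was among the steadiest genes, at 14.6, 14.3 and 14.2 CPM in E13.5 WT and 13.98, 14.3 and 14.3 CPM in KO, then 16.1, 16.5 and 17.3 CPM in E14.5 WT and 13.8, 16.6 and 16.9 CPM in KO. Its values from lowest to highest differed by a ratio of 1.25. Alad, Urod and Cpox, the other cytosolic and intermembrane enzymes, had group means of 29.7 to 34.2, 34.6 to 37.2 and 34.4 to 40.1 CPM, none called in a KO comparison.

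Slc25a37 (mitoferrin 1), the mitochondrial iron importer of erythroid cells, was 34.8, 30.1 and 32.96 CPM in E13.5 WT and 29.1, 21.1 and 29.6 CPM in E13.5 KO. By E14.5 it stood at 32.9, 33.3 and 43.8 CPM in WT and 23.7, 33.2 and 60.02 CPM in KO. All E13.5 KO hearts were below all WT hearts, whereas the E14.5 KO hearts held both the lowest and the highest value of that stage. Slc25a38, the glycine carrier that supplies the first step of haem synthesis, stayed between 10.2 and 13.48 CPM in all 12 hearts. Its log2 fold change of KO over WT was 0.16 ± 0.10 at E13.5 and -0.17 ± 0.10 at E14.5.

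Membrane proteins of the red cell were measured through 11 genes, and 0 passed for KO against WT at E13.5, at E14.5 or averaged in edgeR or DESeq2. None reached an unadjusted p under 0.05 in edgeR. Slc4a1 (chromosome 11, 102348824 to 102366203) was 15.8, 12.8 and 18.3 CPM in E13.5 WT and 14.4, 10.4 and 25.4 CPM in KO. E14.5 hearts had 12.9, 10.8 and 20.1 CPM in WT and 4.06, 11.6 and 31.1 CPM in KO. The E14.5 KO hearts held the lowest and the highest of all 12 values, a ratio of 7.66, and the log2 fold changes were 0.11 ± 0.63 and 0.10 ± 0.64.

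Epb42, which lies on chromosome 2 (121017891 to 121037072) and starts 1.64 Mb from Ino80, was 1.22, 1.31 and 1.67 CPM in E13.5 WT and 1.01, 0.809 and 1.77 CPM in KO. The E14.5 values were 1.24, 0.933 and 2.403 CPM in WT and 0.435, 0.579 and 1.67 CPM in KO. The genotypes overlapped at both stages, and the averaged log2 fold change was -0.49 ± 0.35, adjusted p = 0.542. Rhag, the carrier protein on which the Rh complex depends, gave few reads: 44, 29 and 24 counts in E13.5 WT, 28, 7 and 121 in E13.5 KO, 16, 12 and 23 in E14.5 WT and 18, 20 and 35 in E14.5 KO. On the CPM scale its values were 0.237, 0.327 and 0.385, then 0.283, 0.138 and 0.665, then 0.342, 0.224 and 0.373, then 0.2797, 0.246 and 0.516. E13.5 KO replicates 5 and 7 were the lowest and the highest of all hearts, so no genotype stood apart.

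Rhd, the Rh blood group protein, was 1.68, 1.22 and 2.04 CPM in E13.5 WT and 1.33, 1.204 and 1.73 CPM in KO, and 2.16, 2.28 and 2.83 CPM in E14.5 WT and 1.65, 1.47 and 2.995 CPM in KO. E14.5 KO replicate 1 was the highest, and the genotypes overlapped. Kel, the Kell blood group endopeptidase, ranged from 0.280 to 2.80 CPM, a ratio of 9.99, with E13.5 KO replicate 7 highest. Ermap, a blood group protein of the erythroblast membrane, and Icam4, an adhesion molecule between erythroblasts and macrophages, ranged over ratios of 6.18 and 5.45. Epb41, protein 4.1 of the skeleton, was 93.05, 92.95 and 89.1 CPM in E13.5 WT and 86.9, 80.7 and 95.6 CPM in KO, and 93.04, 95.3 and 96.6 CPM in E14.5 WT and 68.6, 90.03 and 124 CPM in KO. Its WT hearts lay within 89.1 to 96.6 CPM, below which lay KO replicates 3 and 5 of E13.5 and 2 of E14.5 and above which lay KO replicate 1 of E14.5.

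Sptb, beta spectrin, depended on 1 library. It was 91.1, 90.2 and 108 CPM in E14.5 WT and 70.7, 59.6 and 116 CPM in E14.5 KO, and KO replicate 1 exceeded all WT hearts while the other KO hearts lay below them. With all libraries the log2 fold change at E14.5 was -0.23 ± 0.20, adjusted p = 0.823. Without E14.5 KO replicate 1 it was -0.57 at E14.5 (edgeR, adjusted p = 0.0367) and -0.31 averaged over the stages (0.0373). In that fit 0.512% and 2.31% of all genes were called. Leaving out all of litter 3, which also drops WT replicate 7.2, gave no call of Sptb in either comparison. There 0.289% and 1.58% of all genes were called.

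Genes of maturation, red cell enzymes and the erythropoietin receptor made up the last 9. Bnip3l, which clears mitochondria from the maturing red cell and acts in mitophagy elsewhere, had the highest level per transcript length in E13.5 WT hearts, 38.5 ± 1.74 CPM per kilobase of exons (mean ± SD, n = 3). On that scale Tfrc followed at 24.9 ± 1.92, while Alas2 stood at 10.6 ± 3.27 and Tspo2 was lowest at 0.0938 ± 0.117. Bnip3l was 146, 156 and 143 CPM in E13.5 WT and 144, 147 and 152 CPM in KO. In the later hearts it was 151, 134 and 142 CPM in WT and 183, 158 and 161 CPM in KO. All E14.5 KO hearts lay above all WT hearts of that stage, but the log2 fold change of 0.23 ± 0.07, adjusted p = 0.253, did not pass in edgeR.

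Nfe2, a transcription factor of erythroid cells and platelets, had a log2 fold change of 0.55 ± 0.22, adjusted p = 0.261, averaged over the stages, and did not pass. Its group means were 1.004 ± 0.1297 and 1.24 ± 0.297 CPM at E13.5, and 0.732 ± 0.255 and 1.28 ± 0.407 CPM at E14.5. Summed platelet and megakaryocyte markers were 10.7 to 21.9 CPM across the hearts, and their part in the Nfe2 values was not tested. Trim10, a protein needed for terminal red cell differentiation, was 2.08, 1.94 and 3.62 CPM in E13.5 WT and 1.71, 1.05 and 2.803 CPM in KO, and 2.56, 2.52 and 4.08 CPM in E14.5 WT and 0.559, 2.22 and 5.41 CPM in KO. Its lowest and highest hearts were E14.5 KO replicates 2 and 1, a ratio of 9.68.

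Bpgm, which makes the 2,3-bisphosphoglycerate that loosens oxygen binding, was 21.99, 24.9 and 27.8 CPM in E13.5 WT and 28.8, 21.97 and 26.3 CPM in KO. The E14.5 values were 29.4, 29.8 and 30.7 CPM in WT and 19.1, 26.3 and 60.7 CPM in KO. The E14.5 KO replicate 1 heart was the only one above 31 CPM. Car2, carbonic anhydrase 2, was 12.96, 12.4 and 16.7 CPM in E13.5 WT and 16.5, 13.2 and 19.7 CPM in KO, and 11.9, 12.3 and 16.3 CPM in E14.5 WT and 11.3, 12.5 and 16.8 CPM in KO, with overlap at both stages. Xpo7, a nuclear exporter used as the red cell nucleus condenses, was the steadiest gene, with a ratio of 1.2 from lowest to highest heart. Trim58, a ubiquitin ligase of enucleation, gave 38, 2 and 27 counts in E13.5 WT, 6, 5 and 24 in E13.5 KO, 4, 2 and 3 in E14.5 WT and 5, 9 and 12 in E14.5 KO. Tspo2, a membrane protein of erythroblasts, gave 0 to 46 counts. No difference in Trim58 or Tspo2 was detectable at this depth.

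The second comparison was between embryos, since the hearts differed in their globin level. Alas2, Fech and other genes followed the globin level embryo by embryo, while Tfrc, Kel and others did not pass. Across the 12 embryos, 8 of the 31 genes correlated with summed globin CPM on the log2 scale by both Pearson's r and Spearman's rho, adjusted over the 31 genes. The relation was not computed over all genes, so whether 8 of 31 is an unusual share was not tested. Of the 31 genes 28 had an r above 0. The median r was 0.585 for the erythroid-restricted genes and 0.438 for the others. Without the 2 embryos farthest from the median globin level these medians were 0.459 and 0.525. Both axes come from the same libraries and share their scaling. For Alas2, r = 0.991, permutation p = 1e-05, adjusted 0.00031, and rho = 0.993, permutation p = 1e-05, adjusted 0.00031, where 1e-05 is the smallest p that 100000 permutations can give. Without the embryos farthest from the median globin level, E14.5 KO replicates 1 and 2, r was 0.9904. Within litter 1 it was 0.972 and within E14.5 it was 0.993, each over 6 embryos.

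The proportion of Alas2 reads to globin reads varied less between hearts than the Alas2 level did. Alas2 gave 0.283, 0.281 and 0.286 reads per 100 globin reads in E13.5 WT and 0.284, 0.222 and 0.287 in E13.5 KO. At E14.5 it gave 0.313, 0.337 and 0.355 in WT and 0.259, 0.28 and 0.305 in KO. Hearts with 12.7 to 127 CPM of Alas2 thus stayed between 0.222 and 0.355 reads per 100 globin reads. The 3 E14.5 WT hearts lay above all E13.5 hearts and above the 3 E14.5 KO hearts on this scale. These contrasts were chosen after their values were seen and were not tested. Slc4a1 gave 0.230, 0.161 and 0.153 reads per 100 globin reads in E13.5 WT and 0.217, 0.179 and 0.253 in E13.5 KO. At E14.5 it gave 0.110, 0.078 and 0.109 in WT and 0.083, 0.119 and 0.074 in KO. All 6 E14.5 hearts lay below all 6 E13.5 hearts for this proportion, in both genotypes, which was not so for Alas2. With the globin level as a covariate, Slc4a1 had a log2 fold change of -1.17 from E13.5 to E14.5 in KO (edgeR, adjusted p = 0.0469) and -0.80 in WT (0.101). In that fit 1.92% and 1.67% of all genes were called. Without the covariate the level of Slc4a1 did not differ by stage, at -0.11 ± 0.64 in KO (edgeR, adjusted p = 0.9455) and -0.10 ± 0.64 in WT (0.9426). The difference is thus relative to globin.

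The genes besides Alas2 that passed were Fech (r = 0.956, permutation p = 3e-05, adjusted 0.000465, and rho = 0.909, permutation p = 0.00011, adjusted 0.00114), Trim10 (r = 0.865, permutation p = 0.00058, adjusted 0.00257, and rho = 0.944, permutation p = 2e-05, adjusted 0.00031), Rhd (r = 0.844, permutation p = 0.00019, adjusted 0.000982, and rho = 0.874, permutation p = 0.00026, adjusted 0.00201), Bpgm, Slc25a37, Epb41 and Uros. For Bpgm, r = 0.931, permutation p = 5e-05, adjusted 0.000517, and rho = 0.881, permutation p = 0.00043, adjusted 0.00267. For Slc25a37, r = 0.916, permutation p = 8e-05, adjusted 0.00062, and rho = 0.7902, permutation p = 0.00336, adjusted 0.0149. For Epb41, r = 0.881, permutation p = 0.00017, adjusted 0.000982, and rho = 0.811, permutation p = 0.0022, adjusted 0.0114. For Uros, r = 0.765, permutation p = 0.00144, adjusted 0.00496, and rho = 0.699, permutation p = 0.0139, adjusted 0.0432. Fech, Bpgm, Slc25a37, Epb41 and Uros are also expressed outside red cells.

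Without the 2 embryos farthest from the median, r was 0.966 for Fech, 0.8804 for Trim10, 0.907 for Rhd, 0.782 for Bpgm, 0.766 for Slc25a37, 0.694 for Epb41 and 0.743 for Uros. Of the 31 genes 6 passed there by both measures, namely Alas2, Fech, Trim10, Rhd, Bpgm and Steap3. Slc25a37 and Uros passed there by r and not by rho, and Epb41 passed by neither (adjusted p of 0.0551 for r and 0.132 for rho). Within litter 1, where all embryos are E13.5, r was 0.9602 for Fech, 0.938 for Trim10, 0.782 for Rhd and -0.0456 for Uros. It was 0.558, 0.541 and 0.543 for Bpgm, Slc25a37 and Epb41. Within E14.5 it was 0.975, 0.925, 0.843, 0.779, 0.972, 0.984 and 0.978 for the same genes in that order. By exact permutation tests over 6 embryos, 2 genes, Alas2 and Fech, passed within litter 1 and 3, Alas2, Bpgm and Epb41, within E14.5. For Uros the relation was thus not seen within litter 1. Slc4a1 passed by r only (r = 0.702, permutation, adjusted p = 0.0494). Its r without the 2 farthest embryos was 0.331 and did not pass (permutation, adjusted p = 0.416). Within litter 1, which holds neither of them, its r was 0.753 (exact permutation, adjusted p = 0.282), and within E14.5, which holds both, it was 0.958 (0.0492), so the stages taken singly gave a higher r than the pooled hearts. Kel, at r = 0.183, did not pass.

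**Figure D3:**
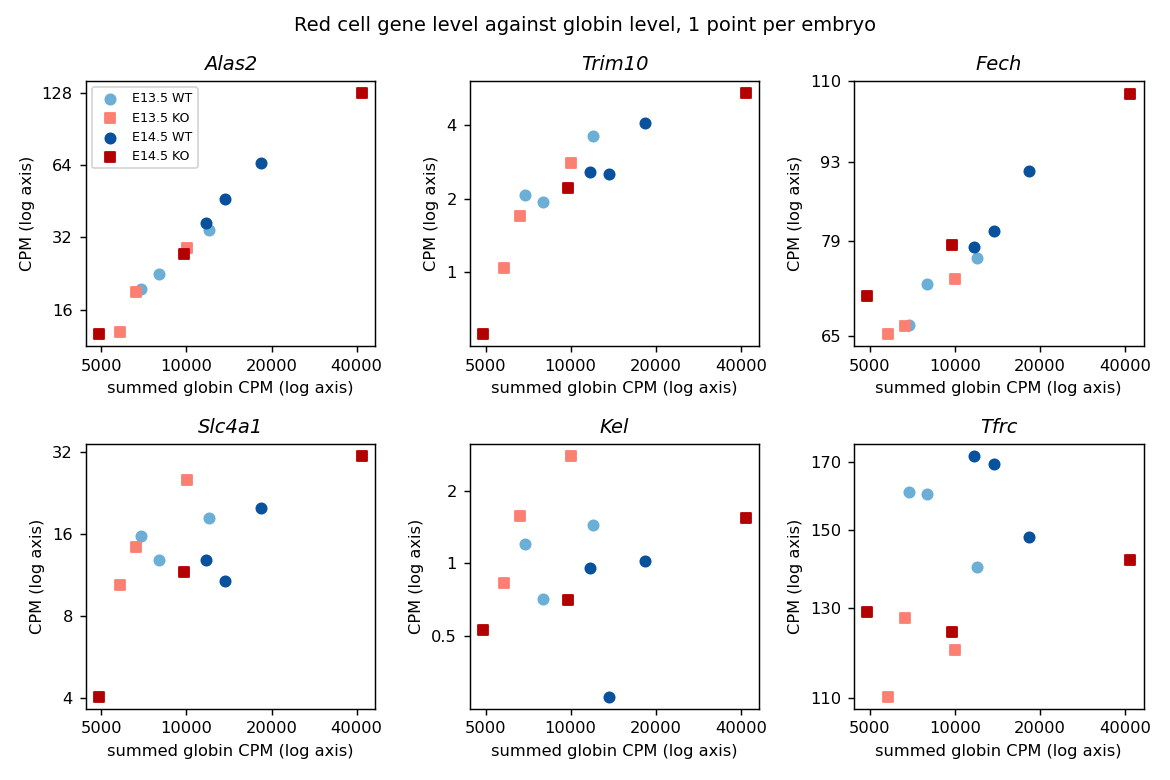
Level in CPM (y axis, log scale) of Alas2, Trim10, Fech, Slc4a1, Kel and Tfrc against summed globin CPM (x axis, log scale), 1 point per embryo, coloured by group. The points of Alas2 lie close to 1 line (r = 0.991), while those of Kel and Tfrc are scattered, and the Slc4a1 points of E14.5 lie below those of E13.5 at a like globin level.

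Upstream sequences are shown for the erythroid-restricted genes that passed with globin, Alas2, Trim10 and Rhd, and for Tfrc, the gene called between genotypes. They are the 250 bases before the RefSeq start on GRCm38.p6, 5′ to 3′ on the plus strand, at chrX:150547167-150547416, chr17:36869324-36869573, chr4:134864286-134864535 and chr16:32608646-32608895. Capitals mark matches on either strand to AGATAA or TGATAA, forms of the motif bound by GATA factors, or to CCNCNCCC, the motif of KLF and SP factors, whose matches may overlap one another.
Alas2: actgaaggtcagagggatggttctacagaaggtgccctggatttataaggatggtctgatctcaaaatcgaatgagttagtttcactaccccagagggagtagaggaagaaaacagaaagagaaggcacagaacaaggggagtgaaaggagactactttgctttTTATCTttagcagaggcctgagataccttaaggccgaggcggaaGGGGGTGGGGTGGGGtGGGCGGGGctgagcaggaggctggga
Trim10: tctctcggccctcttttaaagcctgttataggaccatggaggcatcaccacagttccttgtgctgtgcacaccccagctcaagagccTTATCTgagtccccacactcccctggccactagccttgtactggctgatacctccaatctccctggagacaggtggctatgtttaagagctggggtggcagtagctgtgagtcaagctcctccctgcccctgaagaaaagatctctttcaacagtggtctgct
Rhd: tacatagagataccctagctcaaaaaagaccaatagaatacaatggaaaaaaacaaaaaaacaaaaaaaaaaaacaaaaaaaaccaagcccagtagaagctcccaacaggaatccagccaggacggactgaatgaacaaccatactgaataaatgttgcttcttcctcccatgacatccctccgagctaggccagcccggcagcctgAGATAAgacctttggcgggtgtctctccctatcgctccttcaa
Tfrc: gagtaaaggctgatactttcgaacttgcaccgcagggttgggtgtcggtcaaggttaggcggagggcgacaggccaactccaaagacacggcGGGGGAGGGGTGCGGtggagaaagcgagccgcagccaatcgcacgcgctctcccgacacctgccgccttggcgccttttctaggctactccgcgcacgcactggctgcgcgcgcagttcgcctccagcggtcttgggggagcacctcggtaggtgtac
Alas2, Trim10 and Rhd each hold 1 AGATAA match in this stretch. Alas2 also holds 4 overlapping or adjacent CCNCNCCC matches, and Tfrc holds 3 of them and no GATA match. A second RefSeq start of Tfrc, not printed, has 2 CCNCNCCC matches and no GATA match before it. Kel, Ermap and Icam4, which did not pass with globin, also hold GATA matches in this stretch. RefSeq windows of 300 bases, which add 50 bases after the start, were given for 22 of the 31 genes. A GATA match was in the windows of 8 of 10 erythroid-restricted genes and of 4 of the other 12, where 21.0% of all 27025 genes in the table had one. A CCNCNCCC match was in 4 of 10 erythroid-restricted genes and in 12 of 12 others, where 51.9% of all genes had one. A gene with several windows was counted once. Among single windows of all genes 18.6% held a GATA match and 49.5% a CCNCNCCC match. These shares were 80% and 40% over the 10 windows of the erythroid-restricted genes. Over the 20 windows of the other 12 genes they were 20% and 85%. These are matches of letters, and no binding was measured.

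Single hearts stood out. Among the 31 genes, 11 had their highest value in E14.5 KO replicate 1, against 9.01% of all tested genes, and 7 in E14.5 WT replicate 7.2, against 15.5%. Both came from litter 3. E14.5 KO replicate 2 held the lowest value of 10 genes, against 13% of all genes, and E13.5 KO replicate 5 that of 6, against 8.53%. The summed level of the erythroid-restricted genes was 43.6, 41.7 and 64.1 CPM in E13.5 WT and 40.6, 28.7 and 66.1 CPM in E13.5 KO. In E14.5 hearts the sum was 57.9, 64.02 and 97.9 CPM in WT and 20.97, 45.6 and 173 CPM in KO. The spread among E14.5 KO hearts thus enclosed all other hearts. The median coefficient of variation among the 3 embryos of a group was 31%, 42.3%, 44% and 58.9% for the erythroid-restricted genes in E13.5 WT, E13.5 KO, E14.5 WT and E14.5 KO. For the other 20 genes it was 7.64%, 6.53%, 8.37% and 16.7%, and over all tested genes 9.29%, 8.37%, 10.4% and 11.6%.

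E13.5 KO replicate 7 held the highest value of 4 genes, Rhag, Kel, Ermap and Car2, where it was highest for 5.79% of all genes. E13.5 WT replicate 2 also held that of 4, Alad, Urod, Trim58 and Tspo2, against 8.61%. The highest values of Rhag, Kel and Ermap were low, at 0.665, 2.80 and 1.5 CPM. The globin level of E13.5 KO replicate 7 was 10020 CPM, below the 12000 CPM of E13.5 WT replicate 2. Rhag, Kel and Ermap were thus highest in a heart that did not have the most globin.

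**Figure D4:**
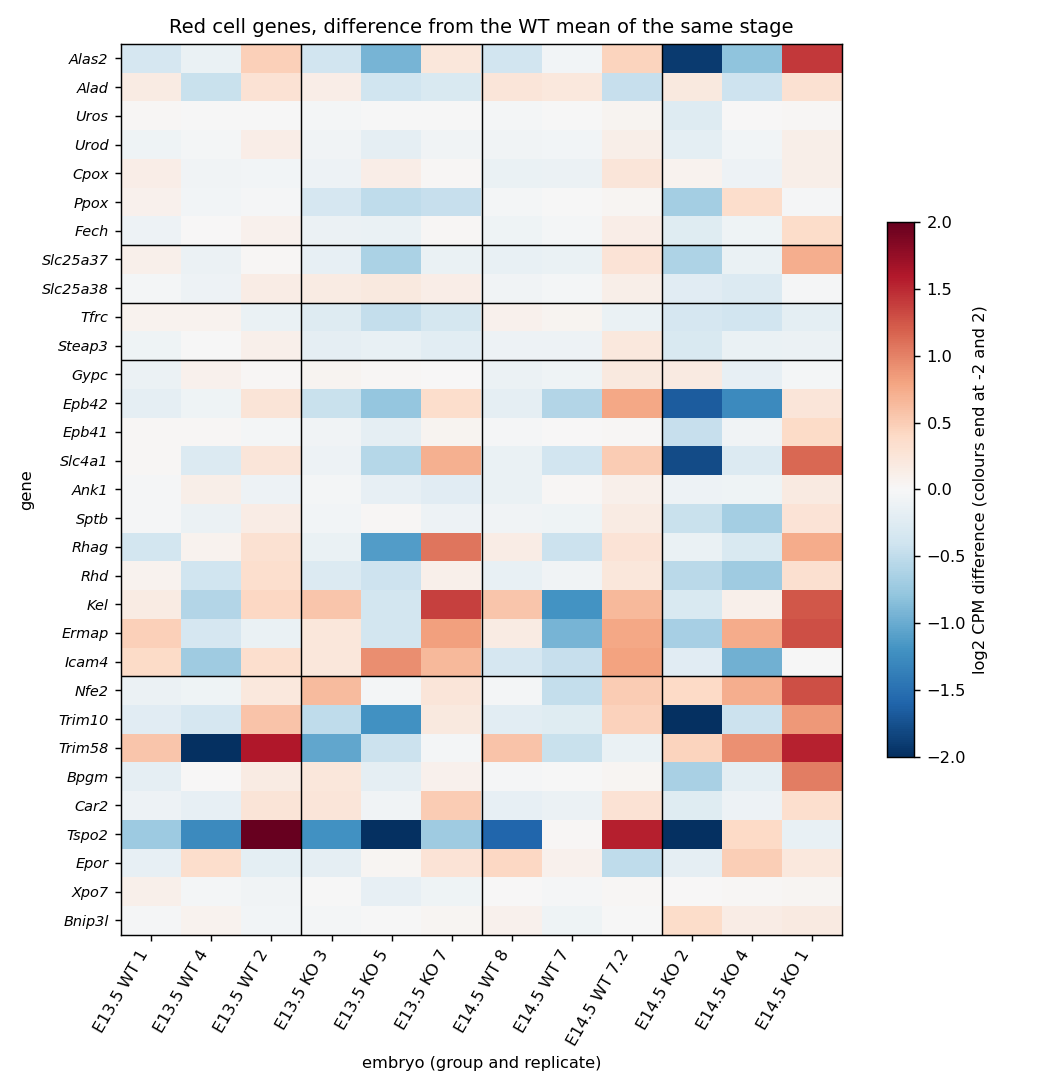
Difference in log2 CPM from the WT mean of the same stage for the 31 red cell genes (rows, grouped by role) in each of the 12 embryos (columns). Red is higher and blue lower, with colours ending at -2 and 2. E14.5 KO replicate 1 is mostly red and replicate 2 of the same group mostly blue over the erythroid-restricted genes, and Tfrc is blue in all 6 KO hearts.

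The third comparison was E14.5 against E13.5 within each genotype, which addresses how these genes change as the heart matures, with stage and litter inseparable. Ank1 (chromosome 8, 22974844 to 23150497), the ankyrin that ties spectrin to the red cell membrane and is also made in muscle, rose in both genotypes. It was 27.3, 29.9 and 25.8 CPM in E13.5 WT and 26.9, 24.7 and 23.5 CPM in E13.5 KO. By E14.5 it stood at 33.2, 37.2 and 39.1 CPM in WT and 34.02, 34.3 and 41.3 CPM in KO. All 6 E14.5 hearts lay above all 6 E13.5 hearts. The log2 fold change was 0.40 ± 0.10, adjusted p = 0.0392, in WT and 0.55 ± 0.10, adjusted p = 0.016, in KO (edgeR), and the difference between them was 0.15 ± 0.14, adjusted p = 0.997. Ank1 was the 1 call of 31 in each genotype, where 4.04% of all tested genes were called in WT and 3.74% in KO.

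The Ank1 calls were close to the threshold. In WT the call was kept in 6 of 12 fits that left out 1 library, with adjusted p up to 0.174. It was lost without any of E13.5 WT replicates 1, 4 and 2, E13.5 KO replicate 5 and E14.5 WT replicates 7 and 7.2, with adjusted p of 0.121, 0.0725, 0.0883, 0.0595, 0.0758 and 0.174 in that order. In KO it was kept in 9 of 12, and lost without KO replicate 5 or 7 of E13.5 or KO replicate 1 of E14.5, with 0.0543, 0.0709 and 0.0502. With litter as a replicate block, which compares E13.5 with litter 2, Ank1 in WT had a log2 fold change of 0.33 (edgeR, adjusted p = 0.0736). With the embryonic globin level as a covariate it was 0.081 in WT (0.872) and 0.30 in KO (0.495). That level itself fell with stage, from 902 to 1328 CPM at E13.5 to 51.2 to 348 CPM at E14.5 in WT. In KO it was 2091 to 2707 CPM and then 184 to 1002 CPM. The fit therefore cannot separate stage from this covariate, and 0.00483% and 0% of all genes were called in WT and KO.

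The stage groups were apart for 11 of the 31 genes in WT, 9 higher and 2 lower at E14.5, where 29.5% of all genes were apart. In KO they were apart for 4, 3 higher and 1 lower, where 24.9% of all genes were. Gypc, the glycophorin that anchors protein 4.1, was 34.5, 39.7 and 37.8 CPM in E13.5 WT and 43.7, 44.8 and 54.4 CPM in E14.5 WT, and 38.7, 37.9 and 37.6 CPM in E13.5 KO and 53.5, 42.2 and 46.2 CPM in E14.5 KO. Its groups did not overlap, and its log2 fold changes were 0.35 ± 0.10, adjusted p = 0.0615, in WT and 0.31 ± 0.10, adjusted p = 0.0936, in KO. Epor, the erythropoietin receptor, was 1.75, 2.502 and 1.698 CPM in E13.5 WT and 1.72, 2.01 and 2.36 CPM in E13.5 KO. E14.5 hearts had 1.52, 1.195 and 0.796 CPM in WT and 0.995, 1.59 and 1.31 CPM in KO. All E14.5 hearts lay below the E13.5 hearts of their genotype, with log2 fold changes of -0.77 ± 0.28, adjusted p = 0.124, in WT and -0.64 ± 0.27, adjusted p = 0.201, in KO, which did not pass.

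Sptb was 64.8, 61.1 and 73.2 CPM in E13.5 WT and 63.5, 67.05 and 61.4 CPM in E13.5 KO, below all E14.5 WT hearts, and its log2 fold change was 0.54 ± 0.20, adjusted p = 0.148, in WT. Ppox in WT lay between 16.5 and 17.6 CPM at E14.5, below its 24.4 to 26.8 CPM at E13.5, with -0.58 ± 0.18, adjusted p = 0.09. Alas2 in WT was higher in all E14.5 hearts than in all E13.5 hearts, with a log2 fold change of 0.96 ± 0.76, adjusted p = 0.484. DESeq2 called 4 of the 31 genes in WT, Ank1, Gypc and Sptb as higher and Ppox as lower at E14.5, where it called 11.2% of the genes it tested. In KO it called 2, Ank1 and Gypc, where it called 10.3%. The median log2 fold change of the 31 genes was 0.085 in WT and 0.14 in KO, beside 0.0035 and 0.0036 over all tested genes.

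**Figure D5:**
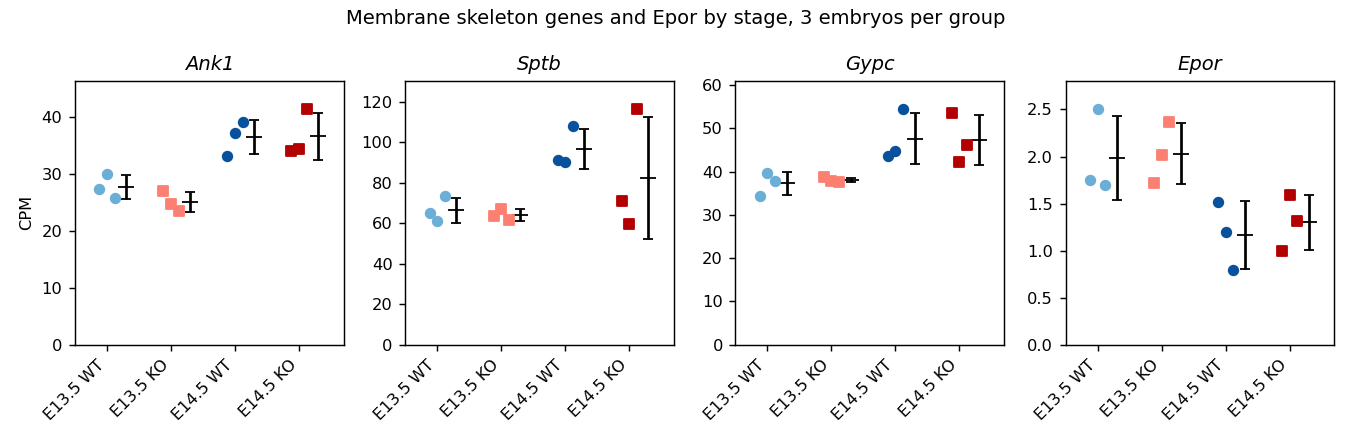
Level in CPM (y axis, from 0) of Ank1, Sptb, Gypc and Epor in the 4 groups (x axis). Each point is 1 embryo, and the black bar beside each group is the mean with its SD. Ank1 lies between 23.5 and 29.9 CPM in E13.5 hearts and between 33.2 and 41.3 CPM in E14.5 hearts, and Epor is lower at E14.5 within each genotype.

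The effect of the disruption was also compared between the stages, with the KO effect at E13.5 subtracted from that at E14.5. Of the 31 genes 0 passed, by edgeR or DESeq2, and 2 had an unadjusted p under 0.05 in edgeR, where 3.61% of all genes did. They were Bnip3l at 0.24 ± 0.10 and Slc25a38 at -0.33 ± 0.14, each with an adjusted p of 0.997. Of all tested genes 0% were called.

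Other genes of the same pathways were read from lists of genes outside the 31. Of 15 other haem pathway genes (other enzymes, haem transport and degradation), 1 was higher in KO at E14.5 and in the average, and 0 were lower, where 0.222% and 1.42% of all genes were called in edgeR. It was Hmox1, haem oxygenase 1, which breaks down haem and is made by macrophages among other cells. Hmox1 was 12.7, 12.6 and 11.3 CPM in E14.5 WT and 21.8, 17.6 and 21.8 CPM in E14.5 KO, after 14.4, 16.96 and 13.4 CPM in E13.5 WT and 15.1, 15.5 and 18.4 CPM in E13.5 KO. The E14.5 groups did not overlap, with a log2 fold change of 0.74 ± 0.12 (edgeR, adjusted p = 0.0241), while the E13.5 groups did. Averaged over the stages it was 0.44 ± 0.08 (0.0196). Each call was kept in 9 of 12 fits that left out 1 library, and both were lost without E14.5 KO replicate 2, with adjusted p of 0.11 at E14.5 and 0.0531 averaged. The call at E14.5 was also lost without WT replicate 7 or 7.2 of that stage (0.0657 and 0.114), and the averaged call without WT replicate 1 or KO replicate 7 of E13.5 (0.0573 and 0.054). The summed macrophage and leukocyte genes were 104, 95.4 and 101 CPM in E14.5 WT and 25.6, 128 and 112 CPM in E14.5 KO. Their part in the Hmox1 values was not tested.

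Of 13 erythroid transcription and signalling genes tested, 3 were higher in KO averaged over the stages and 0 lower in edgeR, Kit, Lyl1 and Tal1, where 1.42% of all genes were called. These are also expressed outside red cells, Kit in mast cells and progenitors and Lyl1 and Tal1 in endothelium. Kit, the receptor of stem cell factor, was 24.2, 25.4 and 21.7 CPM in E13.5 WT and 29.7, 27.7 and 24.6 CPM in KO, and 21.9, 19.8 and 16.04 CPM in E14.5 WT and 33.7, 32.7 and 27.8 CPM in KO. The groups were apart at E14.5, and its averaged log2 fold change was 0.45 ± 0.08 (edgeR, adjusted p = 0.0164). That call was lost without E13.5 KO replicate 3 (0.0534). The averaged calls of Lyl1 and Tal1 were kept in 3 and 2 of 12 fits that left out 1 library, with adjusted p up to 0.0824 and 0.117 in edgeR. At E14.5, 1 of the 13, Kit, was called in edgeR, where 0.222% of all genes were, and the call was kept in 6 of 12 such fits (adjusted p up to 0.124). DESeq2 called 2 there, Kit and Lyl1, and 1.7% of the genes it tested. At E13.5 0 were called by edgeR or DESeq2, with 4 at an unadjusted p under 0.05 in edgeR, where 10.3% of all genes were under it. Of the haem pathway list, 0 were called at E13.5 by either tool, with 2 at an unadjusted p under 0.05.

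Of 11 other iron handling genes, 13 other red cell membrane genes and 13 other maturation genes, 0 were called for KO against WT at either stage or averaged in edgeR. At an unadjusted p under 0.05 there were 3, 3 and 1 of them in the averaged comparison, where 14.7% of all genes were under it. DESeq2 called 0 of the iron and maturation genes and 2 membrane genes, Aqp1 as lower at E14.5 and Add2 as higher in the average. Of all genes it tested, it called 1.57% at E13.5, 1.7% at E14.5 and 5.11% in the average. Tfrc was thus the only iron gene called for KO against WT. Between the stages in WT edgeR called 4.04% and DESeq2 11.2% of the genes each tested. By both tools 1 iron gene was lower in WT at E14.5, the ferritin light chain Ftl1 (481 ± 35.2 against 584 ± 32.2 CPM at E13.5), a call kept in 4 of 12 edgeR fits that left out 1 library, with adjusted p up to 0.187. Of the other membrane genes edgeR called 2 as higher in WT at E14.5, the water channel Aqp1 and the Kell partner Xk, and 1 as lower, the amino acid transporter Slc43a1. DESeq2 called these and also Cd47 and Slc2a1. The edgeR calls were kept in 6, 4 and 9 of 12 such fits for Aqp1, Xk and Slc43a1, with adjusted p up to 0.158, 0.193 and 0.107. In KO hearts 0 of the 13 were called by edgeR, with 6 at an unadjusted p under 0.05, where 20.1% of all genes were under it. DESeq2 called 3 of them in KO, where it called 10.3% of the genes it tested, and the difference between the genotypes was called for 0 of the 13 by both tools. Of the haem pathway list, Blvra, which reduces biliverdin, was the 1 gene that edgeR called in WT and was higher at E14.5, kept in 3 of 12 such fits (adjusted p up to 0.142). DESeq2 called 3 as higher there, Blvra, Alas1 and Tspo. Of the transcription and signalling list, Tal1 and Lyl1 were lower in WT at E14.5 and Tal1 was lower at that stage in KO, by both tools. In edgeR these calls were kept in 8, 7 and 9 of 12 such fits, with adjusted p up to 0.118, 0.142 and 0.0753. Mxi1, a repressor linked to the condensing red cell nucleus, was the 1 maturation gene called by either tool, higher at E14.5 than at E13.5 in KO hearts, where edgeR called 3.74% of all genes, and the call was kept in 8 of 12 such fits (adjusted p up to 0.0978).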

How the data were processed

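Bulk RNA of 12 whole hearts was sequenced after library preparation with a NEBNext Ultra kit, per the labels. The authors deposited raw counts per gene symbol, with no normalization. The submitters' processing notes list STAR 2.5.3a, featureCounts, DESeq2, DESeq and GRCm38, without role or order. Not given in the sources used here were strand, multi-mapping and annotation settings. Reads of overlapping or antisense genes, and of close copies, therefore may not be separable.

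The counts were tested with edgeR 4.0.16 in R 4.3.3. After filterByExpr, 20691 of 45664 rows were left. TMM scaling was used, and all 12 libraries entered 1 robust quasi-likelihood fit with 4 group means, which left 8 residual degrees of freedom and gave a common BCV of 17.1%. Two-sided F-tests gave 6 comparisons, with Benjamini-Hochberg adjustment over all tested genes and a threshold of 0.05. An SE was taken as the size of the log2 fold change over the root of its F statistic. P-values measure the spread between these samples, which the labels do not state to be separate animals beyond title and litter. The model was tested on simulated data. Of genes given a log2 fold change of 0.5 between KO and WT, 29% were called at E13.5, 33% at E14.5 and 50% averaged. At a log2 fold change of 1 these were 65%, 64% and 72%. The changed genes were drawn at random from all tested genes, whose median coefficient of variation within a group was 8.37% to 11.6%. For the erythroid-restricted genes it was 31% to 58.9%, and the share recovered was not computed for them. A gene that did not pass may therefore still differ. Gene positions and lengths come from GENCODE on GRCm38, and upstream sequences from RefSeq.

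Globin relations used log2(CPM + 0.01) and permutation tests (100000 permutations, or exact with 6 embryos), adjusted over 31 genes. Values in every embryo are given for called genes, genes that passed with globin and a panel of 12 named red cell genes, and for other lists at most 3 called genes of smallest p. The members and lists were chosen with earlier results of these data known. Alternatives were DESeq2 1.42.0, RLE factors, no filter, only the compared libraries, litter as a block, globin or Y-linked covariates, leaving out each library, litter 3 or both divergent KO hearts, and other globin measures.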

Additional observations from a re-analysis of the deposited data

How the results depend on the processing

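Counts of called genes among the 31 red cell genes depended on the settings as follows. With DESeq2 there was 1 call at E13.5, 1 at E14.5, 4 between stages in WT and 2 in KO, against 0, 0, 1 and 1 in edgeR, with 1.57%, 1.7%, 11.2% and 10.3% of all genes tested called against 0.106%, 0.222%, 4.04% and 3.74%. Leaving out 1 library gave 0 to 1 calls at E14.5, 1 to 2 averaged over the stages, 0 to 3 between stages in WT and 0 to 2 in KO, while over all genes 0.0473% to 0.512%, 0.599% to 2.31%, 0.0383% to 5.17% and 0.316% to 5.09% were called in these comparisons. The extra calls at E14.5 and averaged were Sptb without E14.5 KO replicate 1. Without both E14.5 KO replicate 2 and E13.5 KO replicate 5 there were 0 averaged (0.297% of all genes) and 0 between stages in KO (0.613%). With the globin covariate there were 0 between stages in WT (1.67%) and 2 in KO (1.92%), and with the Y-linked covariate 0 in WT (2.85%). With the embryonic globin covariate, chosen after seeing the data, there were 0 averaged, 0 in WT and 0 in KO, where 0.029%, 0.00483% and 0% of all genes were called, so few calls were made on any genes. Only the compared libraries gave 3 in WT (2.97%), and leaving out litter 3 gave 0 (0.45%). The cause was not tested.

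Same-numbered samples do not pair across the genotypes in the labels, but litters do. With litter as a replicate block the averaged log2 fold change of Tfrc was -0.34 (edgeR, adjusted p = 0.0159), and between stages in WT there were 0 calls (1.45% of all genes) and in KO 1 (1.6%).

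Of the genes related to globin, 8 passed over 12 embryos, 2 within litter 1 and 3 within E14.5. With adult beta globins alone 10 passed over 12 embryos, Ank1 and Steap3 besides those 8, and 0 and 2 within litter 1 and E14.5. With embryonic globins 0 and 0 passed within litter 1 and E14.5, and the values within a stage for both measures were added after seeing the data. Counts of at most 46 reads per library limit what can be seen in Trim58 and Tspo2.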
